A study of Mus musculus with 8 samples.

Results

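The mouse genes described here are those whose names begin with Kcn, with Cacn, or with Scn and a digit, and they encode the subunits of potassium, calcium and sodium channels. The rule used the names alone and took 138 of the 24346 genes in the table, 134 of them protein-coding and 4 noncoding. Their RNA was measured by RNA-seq in 8 libraries of induced immature oligodendrocytes (iOLs). The 4 Med23+/+ libraries came from Med23 fl/fl mice without Cre, and the 4 Med23-/- libraries came from Med23 fl/fl;Olig1-Cre littermates, so both genotypes carried the floxed alleles. The Olig1 locus drives Cre in the oligodendrocyte lineage, not in all brain cells. Oligodendrocyte precursor cells (OPCs) were immunopanned from brain, grown with the mitogens PDGF-AA (10 ng/ml) and NT-3 (1 ng/ml), and then treated for 1 day with 15 nM T3 (the active thyroid hormone) and 10 ng/ml CNTF (a cytokine). The labels do not say whether the 4 replicates of a genotype came from separate animals or cultures, so p-values measure the spread between these libraries, which may be technical.

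Voltage-gated channels open when the membrane is depolarized. A pore-forming alpha subunit carries the voltage sensor, and auxiliary subunits set its speed, its voltage range and its delivery to the surface. OPCs are unusual among glia in carrying sodium, calcium, delayed-rectifier and A-type potassium currents. Most of these currents are known to shrink as the cells mature, while the inward rectifier potassium conductance grows. Not all genes with these names form voltage-gated pores. The Kcnj genes encode inward rectifiers, the Kcnk genes two-pore-domain leak channels, and several Cacng genes encode proteins that accompany AMPA-type glutamate receptors.

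The channel genes that changed in Med23-/- iOLs were mostly higher there. Values are FPKM (fragments scaled by transcript length and by library size), and 66 members were tested, those averaging 1 FPKM or more across all 8 libraries. A member passed with an adjusted p under 0.05 in limma over all 12328 genes tested. By this rule 31 of the 66 (47%) were higher in Med23-/- iOLs, against 15.9% of all genes tested. Another 6 of the 66 (9.09%) were lower, against 14.1% of all genes, and 29 did not pass. Of the 31, Kcnh8, Kcnk3 and Kcnd3os reached the filter only through the Med23-/- libraries. The 31 also count Kcnd3 with Kcnd3os, and Kcnmb4 with Kcnmb4os2. In these antisense pairs, reads from the exon sequence that both partners share cannot be told apart. The median log2 difference, Med23-/- minus Med23+/+, was 0.41 over the members tested and -0.01 over all genes tested. Added over all 138 genes, the level was 701 to 818 FPKM in the Med23+/+ libraries, against 903 to 1070 FPKM in the Med23-/- libraries. The sum leans on abundant genes. Cacng4 alone gave 139 to 182 FPKM of it in Med23+/+ and 217 to 269 FPKM in Med23-/- libraries.

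On the tested scale, log2(FPKM + 1), 5 of the members that passed were also more than 2-fold higher (7.58%, against 2.98% of all genes tested) and 1 was more than 2-fold lower (1.52%, against 1.75%). The 5 were the potassium channel genes Kcnc1 and Kcnd2, the potassium channel partner Kcnip3, the calcium channel gene Cacna1e and the receptor partner Cacng2, and the 1 was the inward rectifier gene Kcnj3. The added 1 shrinks the fold of genes at a low level, and by the ratio of mean FPKM, a count made after seeing the data, 11 members were more than 2-fold higher (16.7%, against 5.52% of all genes tested) and 3 were more than 2-fold lower (4.55%, against 2.26%). Those added by this ratio were Kcna3, Cacna2d3, Scn3b, Kcnh8, Kcnk3 and Kcnd3os among the rises, the last 3 of which reached the filter only through the Med23-/- libraries, and Cacna1g and Kcnq3 among the falls. For 33 members (50%) every Med23-/- library lay above every Med23+/+ library, which held for 16.3% of all genes tested. For 7 members (10.6%) every Med23-/- library lay below, against 15.3% of all genes.

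**Figure D1:**
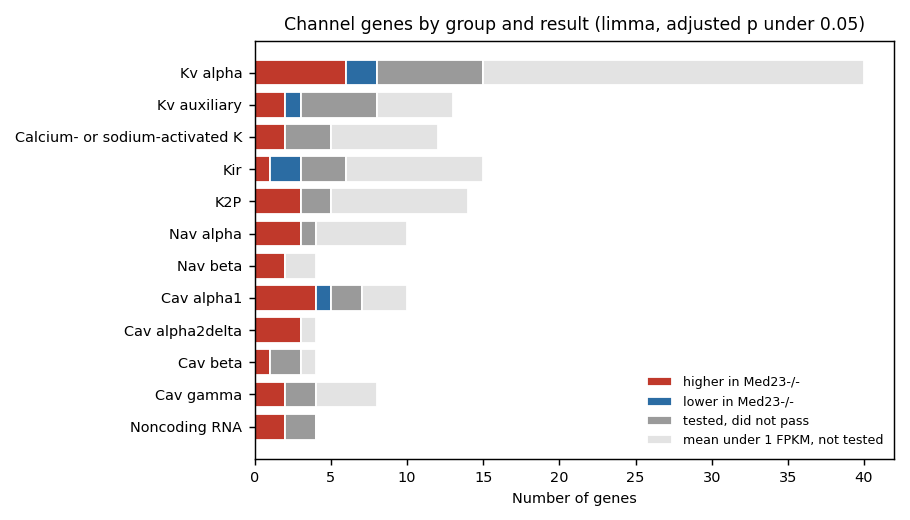
Number of channel genes in each group (bar length), split into those higher in Med23-/- iOLs, those lower, those tested that did not pass, and those with a mean under 1 FPKM. Rises appear in all 12 groups and falls in the Kv alpha, Kv auxiliary, Kir and Cav alpha1 groups.

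Other transcripts moved with genotype in the same libraries. Med23 itself, the subunit of the Mediator coactivator that the cross deletes, was at 12.7, 12.2, 12.6 and 12.6 FPKM in Med23+/+ replicates 1 to 4 and at 8.40, 7.93, 8.49 and 8.21 FPKM in Med23-/- replicates 1 to 4. Its level did not overlap between the genotypes but stayed well above 0, and the value covers the whole gene, not the deleted exons alone. Over all genes tested, 15.9% were higher and 14.1% were lower. Of 8 oligodendrocyte markers 6 were tested and 6 were lower. Of these, Mag and Mog reached the filter only through the Med23+/+ libraries, with means of 0.860 and 0.539 FPKM in Med23-/-. The untested Mobp and Opalin had means under 1 FPKM in both genotypes. Of 5 precursor markers 2 were higher, Pdgfra and Cspg4. Of 16 neuron markers 15 were tested and 11 were higher, and none was at 0 in all libraries. Their summed level was 156 to 198 FPKM over the Med23+/+ libraries, against 295, 240, 364 and 331 FPKM in Med23-/- replicates 1 to 4. Astrocyte markers summed to 128 to 183 and to 94.2 to 147 FPKM, with 1 higher and 3 lower of 8 tested. Microglial markers summed to under 2 FPKM in each library. Markers of endothelial and mural cells summed to 0.762 to 1.38 FPKM in Med23+/+ and 1.46 to 3.75 FPKM in Med23-/- libraries, and 1 of the 8, Kdr, was tested, which reached the filter only through the Med23-/- libraries and rose. Many channel genes are also neuronal genes, and the part of neuron, precursor or astrocyte RNA in the channel results was not tested. In bulk RNA, fewer cells of a type and less RNA per cell cannot be told apart.

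The summed level of the neuron markers was highest in Med23-/- replicates 3 and 4. Not every marker had this order, and Tubb3, Dcx and Nefl were highest in Med23-/- replicate 1. The calls were repeated without Med23-/- replicates 3 and 4, a choice made after seeing the data. Of the 31 members that rose, 22 still passed, and so did 6 of the 6 that fell, in a fit that called 11% of all genes higher and 11.1% lower. Another 8 did not pass in this fit of 6 libraries, where their log2 differences were 0.27 to 0.63, against 0.22 to 0.74 in all 8 libraries, and 1, Kcnh8, was then under the filter. For 11 of the 31 the highest 2 libraries were Med23-/- replicates 3 and 4, as for the neuron marker sum. These were Cacna1d, Cacna1e, Cacna2d1, Cacna2d3, Cacng2, Kcnh8, Kcnk3, Kcnk10, Kcnma1, Scn1a and Scn2a1. The share with this order over all genes that rose was not counted, so the 11 are not read as a trait of channel genes. In Scn1a the order rested on a small gap, with 3.999, 3.78, 4.03 and 4.27 FPKM in Med23-/- replicates 1 to 4.

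**Figure D2:**
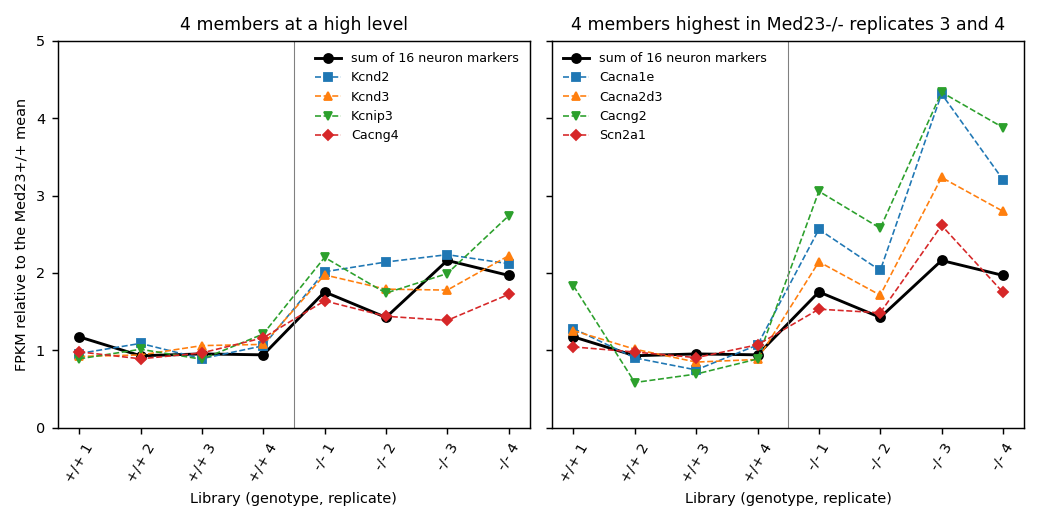
FPKM of 8 channel genes and of the summed neuron markers in each library, divided by the mean of the Med23+/+ libraries; lines only join the points of a gene. Kcnd2, Kcnd3 and Cacng4 in replicates 1 and 2 of Med23-/- lie at about the height of replicates 3 and 4. Cacna1e, Cacna2d3 and Cacng2 are highest in replicates 3 and 4, as the neuron marker sum is.

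Upstream sequences are shown for 5 potassium channel genes picked with their values in view, Kcnj3 and Kcnj10, which fell, and Kcnd2, Kcnd3 and Kcnc1, which rose. Windows of other members that changed, such as Kcnip3 and Kcna3, are not shown. Each is the 250 bases before the transcription start, from RefSeq on GRCm38.p6, read 5′ to 3′ on the plus strand. Capitals mark the GC box, GGGCGG or its reverse complement CCGCCC, which is the core that the factor Sp1 is known to bind and which the study examined.
Kcnj3, chr2:55435720-55435969: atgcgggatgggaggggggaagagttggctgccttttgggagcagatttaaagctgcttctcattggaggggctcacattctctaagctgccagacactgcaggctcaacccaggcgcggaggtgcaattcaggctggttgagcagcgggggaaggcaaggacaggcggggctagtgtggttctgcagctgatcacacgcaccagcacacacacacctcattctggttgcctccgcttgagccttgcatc
Kcnj10, chr1:172340960-172341209: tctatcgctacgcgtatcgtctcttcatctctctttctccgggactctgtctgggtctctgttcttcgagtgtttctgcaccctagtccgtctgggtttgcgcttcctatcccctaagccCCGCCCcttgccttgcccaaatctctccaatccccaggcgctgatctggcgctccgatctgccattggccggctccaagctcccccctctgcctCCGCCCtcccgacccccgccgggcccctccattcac
Kcnd2, chr6:21215096-21215345: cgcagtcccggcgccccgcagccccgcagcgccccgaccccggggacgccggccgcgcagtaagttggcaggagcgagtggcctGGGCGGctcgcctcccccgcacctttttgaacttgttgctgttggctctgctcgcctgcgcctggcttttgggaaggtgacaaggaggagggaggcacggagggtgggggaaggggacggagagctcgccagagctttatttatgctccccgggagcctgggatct
Kcnd3, chr3:105451640-105451889: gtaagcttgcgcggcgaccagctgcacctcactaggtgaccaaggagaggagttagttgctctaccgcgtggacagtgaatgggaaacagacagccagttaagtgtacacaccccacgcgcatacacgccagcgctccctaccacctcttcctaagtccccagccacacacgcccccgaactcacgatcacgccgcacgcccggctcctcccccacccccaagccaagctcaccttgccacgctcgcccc
Kcnc1, chr7:46396218-46396467: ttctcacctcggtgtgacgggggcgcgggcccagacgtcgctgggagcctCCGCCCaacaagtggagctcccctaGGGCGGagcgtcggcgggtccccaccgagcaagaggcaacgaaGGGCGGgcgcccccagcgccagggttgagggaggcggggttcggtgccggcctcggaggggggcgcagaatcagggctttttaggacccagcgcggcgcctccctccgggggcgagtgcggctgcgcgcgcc
Of these windows, Kcnc1 held 3 GC boxes, Kcnj10 held 2 and Kcnd2 held 1, while these letters were in neither the Kcnj3 nor the Kcnd3 window. Among the 32851 windows of this length available here, which do not cover every gene, 32.7% held the motif on either strand. Over the 50 members tested that matched the table, 41.6% of 77 windows held it. The share was 48.6% of 37 windows for members that rose and 34.3% of 35 windows for members that did not pass. For members that fell it was 40% of 5 windows, which came from 3 genes. A gene with several annotated starts gave several windows. The median GC content was 52.4% over all windows and 60% over those of the members tested. It was 64% for members that rose, 58.4% for those that fell and 56.4% for those that did not pass. The part of GC content in these shares was not tested. A match is a description of letters and not a binding site.

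Among the 40 alpha subunits of voltage-gated potassium (Kv) channels, 15 were tested. Of these 6 were higher and 2 were lower, against 15.9% and 14.1% of all genes tested. Both Kv4 genes tested, which carry A-type current, rose. Kcnd2 (chromosome 6, 21215503 to 21729805 on mm10, as for all positions of genes here), which encodes Kv4.2, was at 18.3, 20.8, 17.05 and 20.2 FPKM in Med23+/+ replicates 1 to 4 and at 38.5, 40.9, 42.7 and 40.5 FPKM in Med23-/- replicates 1 to 4. The groups did not overlap, and the mean went from 19.1 ± 1.74 to 40.7 ± 1.73 FPKM (SD, n = 4), or 2.13 times. Its log2 difference was 1.05 ± 0.081 (SE), with an adjusted p of 3.50e-05. Kcnd3 (chromosome 3, 105452330 to 105674002), which encodes Kv4.3, was the most abundant Kv alpha gene, at 26.8, 27.3, 30.8 and 31.3 FPKM in Med23+/+, against 57.4, 52.05, 51.7 and 64.6 FPKM in Med23-/- libraries. The ranges lay far apart (log2 difference 0.93 ± 0.094, adjusted p = 1.33e-04). Kcnd3 shares exon sequence with the antisense gene Kcnd3os, and since the alignment ignored strand, reads from that shared sequence cannot be told apart.

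Kcnc1 (chromosome 7, 46396497 to 46438704) encodes Kv3.1, a fast delayed rectifier. It rose more than any other Kv alpha gene tested. Its level was 13.2, 10.4, 6.93 and 9.73 FPKM in Med23+/+, against 29.2, 26.5, 23.5 and 26.7 FPKM in Med23-/- replicates 1 to 4. The highest Med23+/+ library lay well below the lowest Med23-/- library, the means differed 2.63 times, and the log2 difference was 1.34 ± 0.16 (adjusted p = 2.80e-04). For Kcnd2, Kcnd3 and Kcnc1 alike the exact permutation test over libraries gave its smallest possible two-sided p, 0.0286.

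The Kv1 genes did not move as a block. Kcna3, which encodes Kv1.3, rose from 3.25 ± 1.12 to 7.20 ± 1.86 FPKM (log2 difference 0.96, adjusted p = 0.00845). Kcna1 (chromosome 6, 126640397 to 126646384), which encodes the axonal Kv1.1, fell. Its values were 12.1, 10.6, 10.9 and 10.3 FPKM in Med23+/+, against 6.35, 4.41, 7.19 and 5.87 FPKM in Med23-/- libraries, with no overlap (log2 difference -0.80 ± 0.12, adjusted p = 0.00138). Kcna6 (Kv1.6) was at 28.4 ± 1.06 and 33.6 ± 4.47 FPKM, and its difference of 0.23 did not pass (adjusted p = 0.103). Kcna2 (Kv1.2) was at 20.7 ± 3.58 and 18.5 ± 0.939 FPKM and did not pass either (adjusted p = 0.403). Kcna5 (Kv1.5), known from OPC cultures, was below the filter, at 0.101 ± 0.0433 FPKM in Med23+/+ iOLs and at 0.258 ± 0.149 FPKM without Med23. The level of Kcna3 relative to Kcna1 was 0.190 to 0.405 in Med23+/+ and 0.767 to 1.54 in Med23-/- libraries. This pair and the others given as ratios were picked with their values in view.

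Kcnq3 (chromosome 15, 65986387 to 66286642), which encodes Kv7.3, a subunit of the M-type channel that acts as a slow brake on firing, was at 6.68, 5.34, 3.90 and 4.42 FPKM in Med23+/+, against 2.57, 2.88, 1.97 and 1.45 FPKM in Med23-/- libraries. The 2 genotypes did not overlap, and the gene fell (-0.92 ± 0.18 on the log2 scale, adjusted p = 0.00435).

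Kcnh8 also rose (adjusted p = 0.00892), with a mean of 0.754 ± 0.124 FPKM in Med23+/+ that became 1.65 ± 0.337 FPKM in Med23-/- iOLs. It reached the filter only through the Med23-/- libraries, so its call was partly fixed by that choice. Kcnh1, Kcnh2 and Kcnh5 did not pass.

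**Figure D3:**
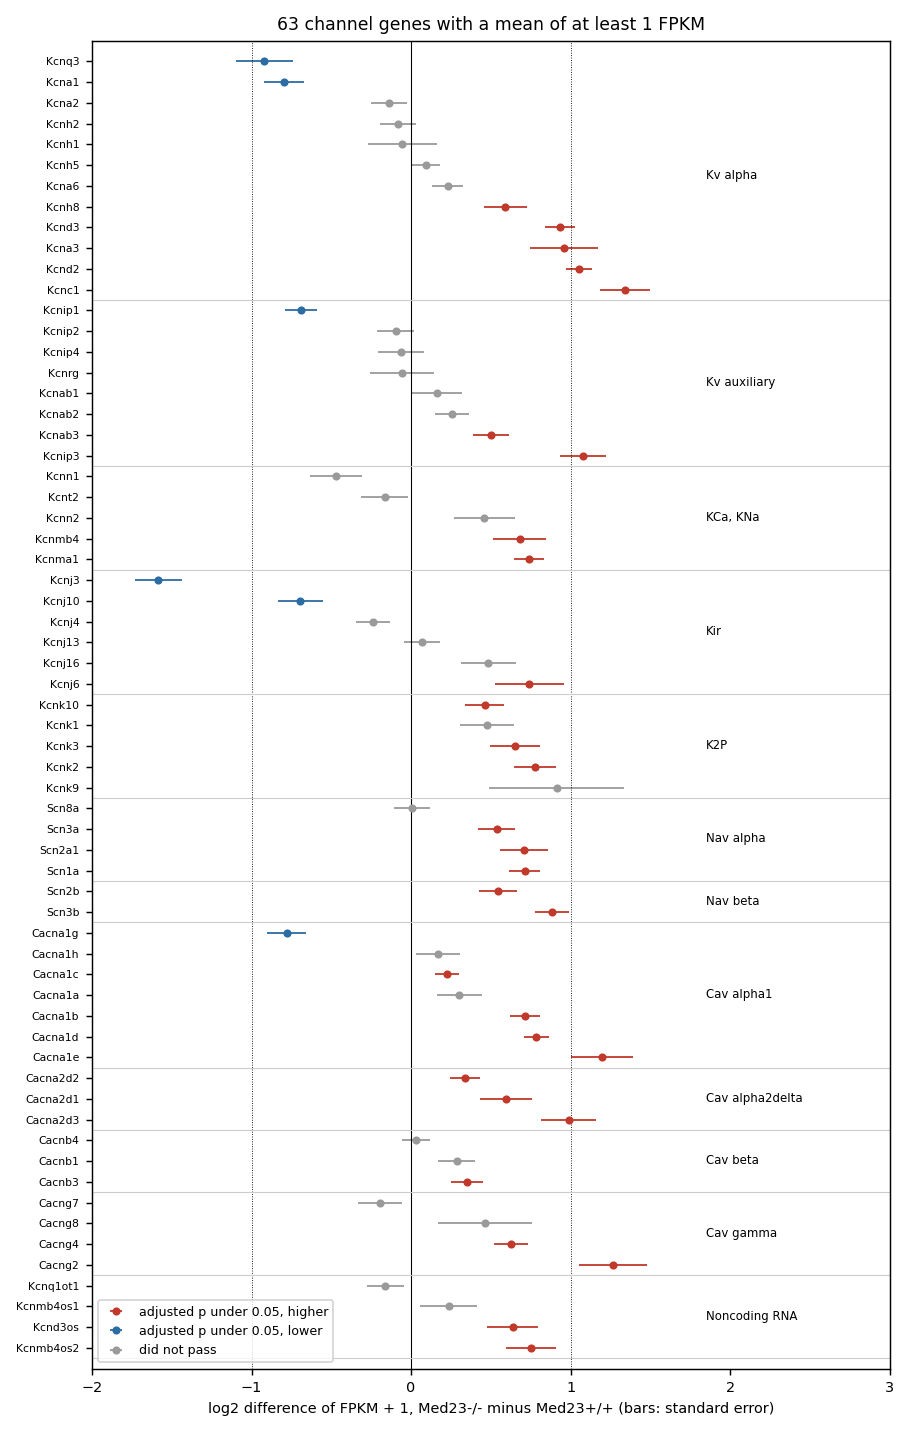
Difference of log2(FPKM + 1), Med23-/- minus Med23+/+, with its standard error for 63 of the 66 members tested, grouped by channel type; red and blue points passed at an adjusted p under 0.05, grey points did not, and dotted lines mark 2-fold. The blue points are Kcnq3, Kcna1, Kcnip1, Kcnj3, Kcnj10 and Cacna1g, and the sodium channel and alpha2delta groups hold no blue point.

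Of 8 auxiliary subunits of the Kv channels tested, 2 were higher and 1 was lower, against 15.9% and 14.1% of all genes tested. The Kcnip genes encode KChIPs, small calcium-binding proteins that attach to the Kv4 pores made from Kcnd2 and Kcnd3. Kcnip3 (chromosome 2, 127456498 to 127522094), also known as the calcium-regulated transcriptional repressor DREAM, was at 22.4, 25.5, 22.2 and 30.4 FPKM in Med23+/+, against 55.3, 43.7, 50.1 and 68.8 FPKM in Med23-/- libraries. Each Med23-/- library was above each Med23+/+ library (log2 difference 1.08 ± 0.15, adjusted p = 6.25e-04). Kcnip1 (chromosome 11, 33629339 to 33993152) was at 9.25, 10.3, 8.59 and 7.66 FPKM in Med23+/+, against 5.16, 5.70, 4.96 and 4.80 FPKM in Med23-/- libraries and fell without overlap (-0.69 ± 0.10, adjusted p = 9.45e-04). Kcnip3 over Kcnip1 was 2.42 to 3.97 in Med23+/+ and 7.67 to 14.3 in Med23-/- libraries. Kcnip2 and Kcnip4 did not pass. Among the cytoplasmic Kv beta subunits Kcnab3 rose from 1.95 ± 0.270 to 3.18 ± 0.322 FPKM (adjusted p = 0.00779), while Kcnab2 at 5.39 ± 0.371 and 6.66 ± 0.940 FPKM did not pass (adjusted p = 0.0905). Kcnab1 did not pass, nor did Kcnrg, a regulator of Kv assembly.

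The proteins Dpp6 and Dpp10, which complete the A-type channel beside Kv4 and KChIPs, lie outside the name rule. Dpp6 was at 17.1, 18.6, 15.5 and 16.2 FPKM in Med23+/+, against 31.5, 25.7, 28.3 and 28.02 FPKM in Med23-/- libraries, with no overlap (log2 difference 0.72, adjusted p = 3.17e-04). Dpp10 rose from 15.4 ± 1.19 to 21.2 ± 3.65 FPKM (adjusted p = 0.0210). Over the list of 29 channel partners 14 were tested, with a median log2 difference of 0.25. Of these 6 were higher and 0 were lower, against 15.9% and 14.1% of all genes tested. The others that rose were Amigo1, a Kv2 partner (0.72), Hcn2, a hyperpolarization-activated channel (0.57), and Fgf12 and Fgf14, which attach to sodium channels.

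**Figure D4:**
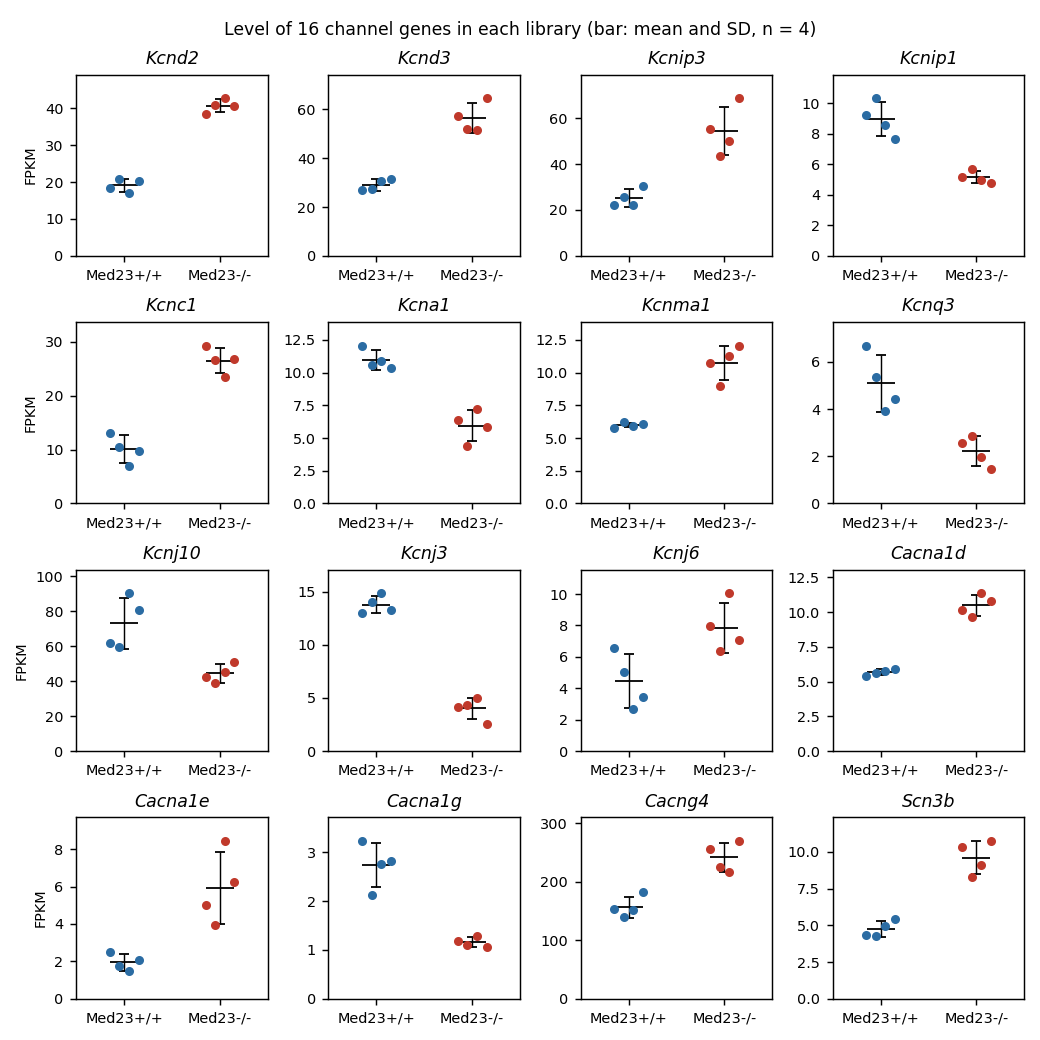
FPKM of 16 channel genes in each library (points), with the mean and SD of the 4 libraries per genotype (black bars); each axis starts at 0. Kcnd2, Kcnd3, Kcnip3, Kcnc1, Kcnma1, Cacna1d and Scn3b lie higher in all Med23-/- libraries, Kcnip1, Kcna1, Kcnq3, Kcnj10, Kcnj3 and Cacna1g lie lower, and Kcnj6 overlaps.

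The inward rectifiers (Kir) were the group in which falls outnumbered rises. Of 15 genes 6 were tested, with 2 lower and 1 higher, against 14.1% and 15.9% of all genes tested. These counts are too small to set the group apart. The group sum was 90.0 to 119 FPKM in Med23+/+ and 61.6 to 76.8 FPKM in Med23-/- libraries. Kcnj10 (chromosome 1, 172341210 to 172374085) encodes Kir4.1, which takes up potassium in oligodendrocytes and astrocytes. It was at 62.01, 59.8, 90.2 and 80.5 FPKM in Med23+/+, against 42.5, 38.8, 45.2 and 51.2 FPKM in Med23-/- replicates 1 to 4. The 2 genotypes did not overlap (log2 difference -0.69 ± 0.14, adjusted p = 0.00552). Kcnj16, whose product Kir5.1 pairs with Kir4.1, was at 2.50, 3.04, 2.46 and 2.16 FPKM in Med23+/+, against 3.47, 3.16, 3.46 and 6.12 FPKM in Med23-/- libraries. These ranges did not overlap, yet the gene did not pass (0.48 ± 0.17, adjusted p = 0.0586), with Med23-/- replicate 4 far above the others. Kcnj10 is also an astrocyte gene. Of the astrocyte markers, Gfap, Aqp4 and Fgfr3 fell in the same libraries, Slc1a2 rose, and Aldh1l1, Slc1a3, Gja1 and Aldoc did not pass.

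Kcnj3 (chromosome 2, 55435970 to 55598145) had the lowest log2 difference of the members tested. It encodes GIRK1, the subunit of G protein-gated inward rectifiers that pairs with GIRK2, the product of Kcnj6. Kcnj3 was at 13.02, 14.01, 14.8 and 13.3 FPKM in Med23+/+, against 4.19, 4.34, 4.95 and 2.57 FPKM in Med23-/- libraries, so the Med23-/- mean was 0.291 of the Med23+/+ mean. The difference was -1.58 ± 0.15 on the log2 scale (adjusted p = 9.06e-05), and leaving out each library in turn gave -1.67 to -1.43. Kcnj3 shares exon sequence with the gene Gm26794 on the opposite strand. Kcnj6 (chromosome 16, 94748636 to 94997701) was at 6.56, 5.06, 2.70 and 3.44 FPKM in Med23+/+, against 7.98, 6.36, 10.04 and 7.05 FPKM in Med23-/- libraries, and these ranges overlapped. Its rise (0.74 ± 0.22, adjusted p = 0.0284) passed in 4 of the 8 fits that left out a library and was lost without Med23+/+ replicate 3 or 4 or Med23-/- replicate 1 or 3 (adjusted p up to 0.0753). Kcnj6 over Kcnj3 was 0.182 to 0.504 in Med23+/+ and 1.46 to 2.75 in Med23-/- libraries. Kcnj4 and Kcnj13 did not pass.

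Channels opened by intracellular calcium or sodium had 2 of 5 tested members higher and 0 lower, against 15.9% and 14.1% of all genes. Kcnma1 (chromosome 14, 23289431 to 24014491), the pore of the BK channel, was at 5.77, 6.20, 5.95 and 6.06 FPKM in Med23+/+, against 10.7, 8.95, 11.2 and 12.05 FPKM in Med23-/- libraries. The Med23+/+ libraries were nearly equal, and all Med23-/- libraries were higher (log2 difference 0.74 ± 0.095, adjusted p = 4.64e-04). Kcnmb4, the BK beta subunit of brain, rose as well, from 6.41 ± 0.616 to 11.1 ± 2.80 FPKM (adjusted p = 0.0127), and without Med23-/- replicates 3 and 4 its adjusted p was 0.0842. Kcnn1, which encodes the small-conductance channel SK1, was lower in every Med23-/- library, at 1.99, 1.96, 1.21 and 0.868 against 2.50, 2.28, 2.33 and 2.53 FPKM, and narrowly missed the threshold (adjusted p = 0.0520). Kcnn2 and Kcnt2 did not pass.

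Among the two-pore-domain (K2P) leak channels 3 of 5 tested members were higher and 0 were lower, against 15.9% and 14.1% of all genes. Kcnk2 (chromosome 1, 189207930 to 189402273), which encodes the mechanosensitive TREK-1, was at 5.52, 4.69, 3.33 and 4.28 FPKM in Med23+/+, against 8.65, 6.98, 8.55 and 8.99 FPKM in Med23-/- libraries. It rose in each library without overlap (0.78 ± 0.13, adjusted p = 0.00216). Its relative Kcnk10 (TREK-2) went from 6.99 ± 0.996 to 10.01 ± 1.42 FPKM (adjusted p = 0.0180) and Kcnk3 (TASK-1) from 0.818 ± 0.139 to 1.89 ± 0.523 FPKM (adjusted p = 0.0117). Without Med23-/- replicates 3 and 4 the adjusted p was 0.126 for Kcnk10 and 0.0962 for Kcnk3, and Kcnk3 reached the filter only through the Med23-/- libraries. Kcnk1 (TWIK-1), the most abundant of the group, was at 9.09 ± 2.27 and 12.9 ± 2.39 FPKM and did not pass (adjusted p = 0.0615). Kcnk9 (TASK-3) varied widely among the Med23-/- libraries, at 1.46, 1.55, 9.47 and 5.50 FPKM in Med23-/- and 1.42, 0.918, 1.73 and 1.68 FPKM in Med23+/+ replicates 1 to 4. Its high libraries, Med23-/- replicates 3 and 4, were those with the highest neuron marker sums, and it did not pass (adjusted p = 0.135).

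Of the sodium channel genes 6 of 14 were tested, 5 rose and 0 fell, against 15.9% and 14.1% of all genes tested. Sodium channels carry the upstroke of the action potential, and brief spikes are known from some OPCs. Scn1a (chromosome 2, 66270778 to 66440840, Nav1.1) was at 2.04, 1.89, 1.92 and 2.44 FPKM in Med23+/+, against 3.999, 3.78, 4.03 and 4.27 FPKM in Med23-/- libraries. The spread within each genotype was small beside the gap (0.71 ± 0.098 on the log2 scale, adjusted p = 7.30e-04). Scn2a1 (chromosome 2, 65620771 to 65767447, the Nav1.2 gene now named Scn2a) was at 3.86, 3.61, 3.35 and 3.96 FPKM in Med23+/+, against 5.66, 5.49, 9.66 and 6.47 FPKM in Med23-/- libraries, with Med23-/- replicate 3 the highest (0.71, adjusted p = 0.00708). Scn3a (chromosome 2, 65457118 to 65567627, Nav1.3), the form of immature brain, was at 7.27, 7.19, 6.30 and 5.57 FPKM in Med23+/+, against 9.26, 11.8, 10.5 and 8.56 FPKM in Med23-/- libraries (0.54, adjusted p = 0.00729). These 3 genes belong to 1 cluster on chromosome 2. Scn8a (Nav1.6), the form of the mature node of Ranvier and the most abundant sodium channel gene here, was at 9.33, 8.56, 11.98 and 10.9 FPKM in Med23+/+, against 10.1, 9.01, 10.8 and 10.8 FPKM in Med23-/- libraries. Its ranges overlapped almost wholly, with means of 10.2 ± 1.54 and 10.2 ± 0.837 FPKM (adjusted p = 0.977).

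Both sodium channel beta subunits tested rose. Scn3b (chromosome 9, 40269217 to 40291618) was at 4.34, 4.29, 4.97 and 5.42 FPKM in Med23+/+, against 10.3, 8.29, 9.13 and 10.7 FPKM in Med23-/- libraries, 2.02 times on average (0.88 ± 0.11, adjusted p = 3.16e-04). Scn2b went from 2.39 ± 0.442 to 3.93 ± 0.407 FPKM (adjusted p = 0.00753; 0.0547 without Med23-/- replicates 3 and 4, where the log2 difference was 0.48 against 0.55 in all libraries). Neither genotype's range overlapped the other's for these 2 genes.

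Calcium channel genes had 26 members, of which 17 were tested, 10 rose and 1 fell, against 15.9% and 14.1% of all genes tested. The pores (Cav alpha1) set the current type. Cacna1e (chromosome 1, 154390731 to 154884501), the R-type pore Cav2.3, was at 2.50, 1.76, 1.46 and 2.09 FPKM in Med23+/+, against 5.01, 3.97, 8.43 and 6.26 FPKM in Med23-/- libraries. All Med23-/- libraries were higher, and replicates 3 and 4 were the highest (1.20 ± 0.19, adjusted p = 0.00165). Without those replicates the difference was 0.90 (adjusted p = 0.00901). Cacna1b (chromosome 2, 24603887 to 24763152), the N-type pore Cav2.2, rose from 4.14 ± 0.327 to 7.44 ± 0.680 FPKM (0.71, adjusted p = 4.82e-04).

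The L-type pores differed in size of change. Cacna1d (chromosome 14, 30039939 to 30491455, Cav1.3) was at 5.39, 5.61, 5.73 and 5.90 FPKM in Med23+/+, against 10.1, 9.63, 11.3 and 10.8 FPKM in Med23-/- libraries, with a tight spread in both (0.78 ± 0.079, adjusted p = 1.33e-04). Cacna1c (Cav1.2), known to carry calcium into OPCs, was at 8.44, 7.90, 8.68 and 8.27 FPKM in Med23+/+, against 10.2, 10.5, 9.32 and 9.55 FPKM in Med23-/- libraries, without overlap. Its difference of 0.22 passed narrowly (adjusted p = 0.0453) and kept its call in 1 of the 8 fits that left out a library, the one without Med23-/- replicate 3. Cacna1g (chromosome 11, 94408391 to 94474198), the low-voltage T-type pore Cav3.1, went the other way. It was at 3.23, 2.13, 2.75 and 2.82 FPKM in Med23+/+, against 1.19, 1.11, 1.29 and 1.06 FPKM in Med23-/- libraries and fell without overlap (-0.78 ± 0.12, adjusted p = 0.00132). Cacna1d over Cacna1g was 1.67 to 2.64 in Med23+/+ and 8.50 to 10.1 in Med23-/- libraries. Cacna1a, the P/Q-type pore and the most abundant of the group, was at 12.1 ± 1.71 and 15.2 ± 2.74 FPKM and did not pass (adjusted p = 0.135), nor did the T-type gene Cacna1h.

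Of the alpha2delta subunits, which bring the pores to the surface, 3 were tested and 3 rose, against 15.9% of all genes tested. Cacna2d3 was at 2.77, 2.24, 1.87 and 1.95 FPKM in Med23+/+, against 4.74, 3.78, 7.14 and 6.18 FPKM in Med23-/- libraries (0.99, adjusted p = 0.00231). Cacna2d1 went from 2.51 ± 0.0744 to 4.43 ± 1.39 FPKM (adjusted p = 0.0220) and Cacna2d2 from 3.77 ± 0.119 to 5.06 ± 0.586 FPKM (adjusted p = 0.0232). Without Med23-/- replicates 3 and 4 the adjusted p was 0.0986 for Cacna2d1 and 0.127 for Cacna2d2. Leaving out 1 library also ended the call of Cacna2d1 (Med23+/+ or Med23-/- replicate 4, adjusted p up to 0.0506) and of Cacna2d2 (Med23+/+ replicate 2 or 4, or Med23-/- replicate 1 or 4, up to 0.0592). Among the intracellular beta subunits Cacnb3 rose from 12.9 ± 0.715 to 16.9 ± 2.33 FPKM (adjusted p = 0.0240), and Cacnb1 and Cacnb4 did not pass. The call of Cacnb3 held in 5 of the 8 fits that left out a library and was lost without Med23+/+ replicate 3 or 4 or Med23-/- replicate 1 (adjusted p up to 0.0645).

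Cacng4 and Cacng7 had the highest levels of all members. Cacng4 (chromosome 11, 107732357 to 107794557) and Cacng2 encode TARPs, which carry AMPA receptors to the surface. Cacng4 was at 153, 139, 151 and 182 FPKM in Med23+/+, against 256, 225, 217 and 269 FPKM in Med23-/- libraries, with no overlap (0.63 ± 0.11, adjusted p = 0.00216). Cacng2 (chromosome 15, 77991748 to 78120028), also called stargazin, was at 2.25, 0.718, 0.853 and 1.09 FPKM in Med23+/+, against 3.75, 3.17, 5.33 and 4.77 FPKM in Med23-/- libraries (1.27 ± 0.21, adjusted p = 0.00202). It was the member with the highest ratio of means among those that passed, 3.46 times, and Med23+/+ replicate 1 was the highest of its genotype. Cacng7 was at 116 ± 22.4 and 100 ± 10.8 FPKM (adjusted p = 0.319) and Cacng8 at 8.90 ± 3.51 and 12.5 ± 4.35 FPKM (adjusted p = 0.268), and neither passed. Cacng5, known from OPCs, was below the filter, at 0.662 ± 0.164 FPKM in Med23+/+ iOLs and at 1.13 ± 0.303 FPKM without Med23.

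The 4 noncoding genes were all tested, and 2 rose, against 15.9% of all genes tested. Kcnmb4os2 went from 3.47 ± 0.638 to 6.59 ± 1.39 FPKM (adjusted p = 0.00590) and Kcnd3os from 0.817 ± 0.252 to 1.84 ± 0.446 FPKM (adjusted p = 0.0144). Kcnd3os reached the filter only through the Med23-/- libraries, and with quantile normalization its adjusted p was 0.0569. Both lie antisense to a channel gene that also rose, and reads from the exon sequence that the partners share could not be told apart. Kcnq1ot1, the antisense RNA of the imprinted Kcnq1 locus, was the most abundant of the 4 at 7.39 ± 1.24 and 6.45 ± 0.448 FPKM and did not pass, nor did Kcnmb4os1. In all, 31 of the 66 members tested share exon sequence with another annotated gene, mostly on the opposite strand.

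By level, 15 members averaged 10 FPKM or more. Of these 7 rose (among them Cacng4, Kcnd3, Kcnip3, Kcnd2, Kcnc1 and Cacnb3), 1 fell (Kcnj10) and 7 did not pass (Cacng7, Kcna6, Kcna2, Cacna1a, Kcnk1, Cacng8 and Scn8a). Over all genes tested, at any level, 15.9% rose and 14.1% fell. The share over all genes at 10 FPKM or more was not counted, so the 7 rises are not read as a trait of channel genes. At the other end, 72 of the 138 members had a mean under 1 FPKM. Of these 3 were listed at 0 in all 8 libraries (Kcne3, Kcnk16 and Kcnv2), 28 more had a mean under 0.1 FPKM, and 41 lay between 0.1 and 1 FPKM. The lowest included channels of other tissues, such as the skeletal muscle genes Scn4a and Cacna1s, the sensory neuron genes Scn9a, Scn10a and Scn11a, the retinal gene Cacna1f, the renal gene Kcnj1 and the cardiac pair Kcnq1 and Kcne1. Just inside the filter were Kcnab1 (mean 1.17 FPKM) and Kcnn2 (1.19 FPKM), and just outside were Kcnq5 (0.976 FPKM) and Kcnn3 (0.942 FPKM). In a fit without the filter, 69 of the 72 could be tested, 10 were higher and 0 were lower. In that fit 11.1% of all 18429 genes were higher and 8.72% were lower, with the genes above the filter included. The share over genes under the filter alone was not counted, so the 10 have no like share beside them. A difference of log2(FPKM + 1) understates the change of genes this low.

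Ion pumps and exchangers, and genes of the calcium stores, were read from a list of 26 genes. Of 23 tested 10 rose and 2 fell, against 15.9% and 14.1% of all genes tested, with a median log2 difference of 0.45. The highest differences were in Orai1, the pore of store-operated calcium entry (1.03, adjusted p = 8.27e-04), Atp2b2, a plasma membrane calcium pump (0.91, adjusted p = 6.26e-04), and Atp1b1, a sodium pump subunit (0.90, adjusted p = 0.0189). The 2 that fell act at the endoplasmic reticulum. Other genes of this store went differently, as Ryr2 (0.87, adjusted p = 0.00659) and Ryr3 (0.71, adjusted p = 0.00537) rose and Itpr1 did not pass. Ryr3, counted among the 10 rises, reached the filter only through the Med23-/- libraries, so its call was partly fixed by that choice. Itpr2, an IP3 receptor that marks newly committed oligodendrocytes, was at 84.3, 86.2, 105 and 87.5 FPKM in Med23+/+, against 30.6, 38.8, 38.4 and 22.1 FPKM in Med23-/- libraries (-1.48, adjusted p = 2.26e-04). Atp2a2, the calcium pump of the store, fell from 154 ± 7.81 to 118 ± 8.52 FPKM (-0.38, adjusted p = 0.00568).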

How the data were processed

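RNA-seq libraries of iOLs, 4 Med23+/+ and 4 Med23-/-, were analysed. Reads from an Illumina X-10 were trimmed (Cutadapt) and aligned to mm10 (Tophat2, defaults) by the authors. With cuffdiff (options -b and -u) the authors made and deposited FPKM per library for 24346 genes listed by symbol. Versions, the annotation and the library normalization were not given in the sources used here. Columns of the authors' own comparison (genotype means, fold changes, p and q values) were not used, and 0 library columns were left out. Without read counts the depth of each library is unknown.

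Values were taken as log2(FPKM + 1). The 12328 genes averaging 1 FPKM or more were compared by limma 3.58.1 in R 4.3.3 (eBayes with a trend) with Benjamini-Hochberg adjustment over all of them, and fold changes on this scale understate the change of low genes. A fold above 2, the study's criterion, was taken on the log2(FPKM + 1) scale as the stricter call, and also as the ratio of mean FPKM. The main fit did not pair replicates by their numbers, and the labels do not say whether a number marks a shared preparation. Members and lists were chosen with earlier results of these data known.

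Named members were those past both criteria, the 12 largest other rises and the falls that passed, the most abundant of each group, channel genes known from the oligodendrocyte lineage, and those at the filter. All other names were chosen after their values were seen. Some members enter the counts but are not reported here by name. Positions come from GENCODE vM21 on mm10, where all 138 symbols matched, 1 of them through an older symbol. Alternatives were other pseudocounts, filters and scalings, no variance trend, sample weights, a replicate block, a covariate for replicates 1 and 2 against 3 and 4, and leaving out libraries.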

Additional observations from a re-analysis of the deposited data

Results flagged for a closer look

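Kcnj16, the partner of Kir4.1, stood out for 1 library. Med23-/- replicate 4 was at 6.12 FPKM while the other 3 Med23-/- libraries were at 3.16 to 3.47 FPKM, a gap of 0.895 of the whole range of that genotype. It was the 1 value set apart by Dixon's 95% criterion for 4 samples among 114 groups of 4 libraries, where chance alone sets apart about 1 in 20. The cause was not tested.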

How the results depend on the processing

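Over the 37 members that passed, 625 of 653 planned refits kept the direction and the call, and the other 28 kept the direction without passing. These were in Cacna1c, Cacna2d1, Cacna2d2, Cacnb3, Kcnab3, Kcnd3os and Kcnj6. With quantile normalization Cacna1c, Cacna2d1, Cacna2d2, Kcnab3 and Kcnd3os did not pass (adjusted p 0.0569 to 0.111). Leaving out each library in turn gave 26 to 33 members higher and 6 to 7 lower, and past the fold criterion 4 to 7 higher and 1 to 2 lower. Over all genes it gave 1556 to 1864 higher and 1225 to 1667 lower, and past the fold criterion 280 to 480 and 200 to 227.

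The count of members past the fold criterion depended on the pseudocount, with 11 higher and 3 lower at 0.1 and 2 lower at 0.5, since a smaller pseudocount widens the differences of low genes; over all genes 654 were higher at 0.1. With the fold as the ratio of mean FPKM, added after seeing the data, 11 members were higher and 3 lower past that criterion, and 681 of all genes were higher. Quantile normalization gave 2 lower past that criterion. With a mean of at least 5 FPKM, 20 members were higher, 3 of them past the fold criterion, and 1281 of all genes were higher, as fewer genes were tested. In fits added after seeing the data, replicates 1 and 2 alone gave 13 members higher, 2 of them past the fold criterion, and 909 genes higher, 796 lower and 216 higher past the fold. Replicates 3 and 4 alone gave 9 members higher past the fold criterion and 1079 genes higher, 693 lower and 586 higher past the fold. Without Med23-/- replicates 3 and 4, 3 members were higher past the fold criterion. The cause was not tested beyond the smaller number of libraries.

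The replicate numbers correlated between genotypes at -0.096 to 0.159, and 3 of 8 libraries correlated best with their own number. With a replicate block 32 members were higher and 6 lower. Over all fits the direction turned in 13 of the 66 members tested, of which 0 had passed. Of those given with values, Scn8a was at -0.025 with quantile normalization, -0.054 with sample weights, -0.067 to 0.080 with each library left out in turn, -0.077 in replicates 3 and 4 alone and -0.073 without Med23-/- replicates 3 and 4, and Cacng7 was at 0.014 and Kcna2 at 0.057 in replicates 1 and 2 alone. No read depth is known, so counting error at low FPKM could not be given.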
